A study of Mus musculus with 6 samples.

Results

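The genes described here build, crosslink or cut the extracellular matrix under and around the uterine epithelium of the mouse. The 47 genes listed were split by role: 26 genes of the interstitial matrix, 12 of the basement membrane, 7 matrix enzymes and inhibitors, and the mesenchymal genes Pdgfra and Vim. Of a gene's probe sets, the one brightest on average (mean log2 signal, 6 arrays) stood for the gene, and 46 of the 47 were found among the 18193 genes measured. Fbn1 had no probe set with a single gene symbol and was not analysed here. The epithelium was separated from the uterus with pancreatin and dispase, and the RNA of each sample was read on 1 Affymetrix 3′ expression array. The groups were Sox17 heterozygous mice (Sox17GFP/+, with 1 allele carrying GFP) on day 4 of pregnancy (arrays 253 and 281), wild-type (WT) mice on day 4 (arrays 277 and 284), and WT mice on day 1, when the vaginal plug was found (arrays 302 and 303). The sources used here give no strain, no age, and not whether a sample was 1 animal or a pool. The p-values therefore rest on the spread between these samples alone, which may be technical.

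The basement membrane is a thin sheet on which an epithelium rests. Laminin trimers of an alpha, a beta and a gamma chain and a network of collagen IV form it, joined by nidogens and the heparan sulfate proteoglycan perlecan. Below it lies the interstitial matrix, made mostly by stromal fibroblasts from fibrillar collagens, small proteoglycans, fibronectin and elastic fibre proteins. Epithelial cells themselves make several laminin chains. SOX17, a transcription factor, is expressed in the uterine epithelium.

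Promoter sequence is shown for 5 of the 7 members that changed between the WT days: the protease inhibitor Timp3, the matrix glycoprotein Fbln1 and the laminin chains Lama5, Lamb1 and Lamb3. Each run holds the 250 bases before the annotated gene start, 5′ to 3′ on the gene's strand, from RefSeq on the build GRCm38.p6. Capitals mark the core of the motif that SOX proteins bind, searched as ACAAT and its reverse complement ATTGT. For Fbln1 and Lamb3, which have 2 annotated starts, the first listed was used.

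Timp3, chr10:86300162-86300411, plus strand: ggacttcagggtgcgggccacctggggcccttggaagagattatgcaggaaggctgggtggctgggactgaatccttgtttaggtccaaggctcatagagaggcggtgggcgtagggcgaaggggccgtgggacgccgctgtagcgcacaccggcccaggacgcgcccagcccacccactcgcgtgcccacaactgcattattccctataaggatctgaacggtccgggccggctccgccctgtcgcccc
Fbln1, chr15:85205699-85205948, plus strand: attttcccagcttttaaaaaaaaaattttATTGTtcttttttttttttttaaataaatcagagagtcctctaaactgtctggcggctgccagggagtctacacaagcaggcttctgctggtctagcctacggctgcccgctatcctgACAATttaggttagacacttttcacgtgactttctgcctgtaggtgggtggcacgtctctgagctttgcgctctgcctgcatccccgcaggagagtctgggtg
Lama5, chr2:180225860-180226109, minus strand: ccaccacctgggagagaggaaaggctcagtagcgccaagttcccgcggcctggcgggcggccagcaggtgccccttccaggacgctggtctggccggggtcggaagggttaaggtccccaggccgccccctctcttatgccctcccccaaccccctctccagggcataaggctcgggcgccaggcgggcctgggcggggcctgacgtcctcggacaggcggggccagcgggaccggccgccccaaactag
Lamb1, chr12:31265043-31265292, plus strand: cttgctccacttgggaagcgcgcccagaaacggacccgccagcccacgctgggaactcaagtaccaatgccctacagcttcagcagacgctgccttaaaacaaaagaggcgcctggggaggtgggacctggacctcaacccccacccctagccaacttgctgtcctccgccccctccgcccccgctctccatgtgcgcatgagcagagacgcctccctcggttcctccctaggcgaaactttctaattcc
Lamb3, chr1:193301744-193301993, plus strand: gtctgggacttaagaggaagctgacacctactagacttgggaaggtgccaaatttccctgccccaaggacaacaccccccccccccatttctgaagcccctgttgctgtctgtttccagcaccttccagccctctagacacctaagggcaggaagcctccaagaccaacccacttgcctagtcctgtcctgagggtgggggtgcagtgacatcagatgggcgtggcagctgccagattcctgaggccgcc

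The SOX core occurred in the Fbln1 run, 221 and 103 bases before the start, and in none of the other 4. It occurred in 5 of the 31 members that had a promoter in the table, against 27.7% of 32851 promoters of the same length. The estrogen receptor half-site AGGTCA (or TGACCT) occurred in 1 of the 31, against 14% of all promoters. A match is a run of letters, not a shown binding site. The GC content was 65.6% for Timp3, 46.4% for Fbln1 and 72.4% for Lama5, against a median of 52.4% over all promoters. The promoter windows of Col4a1 and Col4a2, which lie head to head on opposite strands, overlapped by 78 bases.

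The signals used are intensities on a linear scale, with the same trimmed mean of 500 on every array. Array 277 of WT day 4 stood apart in the dim range. Its median signal was 138, while the medians of the remaining 5 arrays lay between 66.2 and 78.0. Genes with a mean signal under 200 were higher on 277 than on 284 in 7433 of 9087 cases, by a median of 1.25 on the log2 scale, while the median of genes at 200 or more was -0.01. Of the 46 members, 28 had a mean signal under 200 and 10 under 50, so this difference reaches most of the list. Epithelial markers were high on every array, with Epcam between 15142 and 25634, and the 12 of them summed to between 165520.4 and 194347 per array. Single markers still differed between the WT days, by -2.33 for Krt7, -1.25 for Elf3 and 1.39 for Cldn3 on the log2 scale. Sox17 itself read 30189 and 28810.3 on the heterozygous arrays, 34794 and 35060.4 on the WT day 4 arrays and 7738 and 8671 on the day 1 arrays. Its log2 difference between heterozygous and WT on day 4 was -0.24 ± 0.19 (adjusted p = 0.586). A second Sox17 probe set differed more, by -0.64. It read 13304 and 13061 in heterozygous samples, 22781 and 18473 on WT day 4 and 2394 and 2478 on WT day 1, without overlap. The sources used here do not say where the GFP insertion lies relative to the probe sets.

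Between the WT days, the inhibitor Timp3 and the dermatopontin gene Dpt rose, while Fbln1, the fibrillar collagen chain Col5a2 and the laminin chains Lama5, Lamb1 and Lamb3 fell. Thus 2 of 46 members rose on day 4 and 5 fell at an adjusted p under 0.05, while 39 did not pass, against 7.58% of all 18193 genes that rose and 5.73% that fell. The median log2 difference of the members was 0.01, and that of all genes 0.30. Both WT day 4 arrays lay above both day 1 arrays for 13 members and below them for 11, against 35.4% and 21.3% of all genes. The test was limma with a shared spread over the 3 groups and Benjamini-Hochberg adjustment over all genes, and errors after ± are its standard errors with 2 arrays in each group. The calls needed both day 1 arrays: without array 302 or without array 303 no member and no gene passed (3740 and 3946 genes had an unadjusted p under 0.05). With a spread that may vary with the signal (the intensity trend), 2 rose and 10 fell, against 14.0% and 10.8%. Without array 253 or without array 281, 2 members rose and 2 fell. Without array 284, 5 rose and 4 fell, and without array 277, 2 rose and 5 fell.

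Heterozygous against WT epithelium on day 4, most of the matrix genes read lower. The mean log2 signal was lower in heterozygous samples for 42 of 46 members, against 11407 of 18193 genes, and the median difference was -1.08, against -0.20 over all genes. Of the 28 members with a mean signal under 200, where array 277 ran high, 28 were lower with a median of -1.06. Over all genes of that range 6890 of 9087 were lower, with a median of -0.70. Both heterozygous arrays lay below both WT arrays for 28 members and above both for 3 members (Col12a1, Lamb1 and Fbln1), against 30.6% and 18.0% of all genes. With a difference of at least 2-fold besides, the counts were 23 and 2, against 14.0% and 4.20%. In bulk RNA, fewer cells of a type and less RNA per cell cannot be told apart. No member passed the test, and 0% of all genes did, by limma at its default settings. At an unadjusted p under 0.05, 16 members were lower and 2 higher (8.66% and 4.56% of all genes).

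With the intensity trend, 7 members were lower in heterozygous samples at an adjusted p under 0.05 (Bgn, Col3a1, Col6a1, Dpt, Lama3, Lamc1 and Timp3). Col12a1 and Lamb1 were higher. The shares of all genes with this fit were 1.59% lower and 1.93% higher. Timp3 passed in all of 14 fits with the intensity trend, and Col12a1 and Lama3 in 13 of 14. Lamb1 passed in 11, Bgn and Col6a1 in 8, Dpt in 7, and Col3a1 and Lamc1 in 6. The number lower was 3 without array 277, 4 without 303 or without 253, and 9 without 284. The number higher was 1 without 253.

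Set against WT day 1, heterozygous day 4 epithelium had 2 members higher (Col12a1 and Timp3) and 8 lower (Bgn, Col5a2, Col6a1, Fbln1, Lama3, Lama5, Lamb3 and Lum) at an adjusted p under 0.05, against 5.07% and 4.48% of all genes (9.55% in either direction). With the intensity trend 2 were higher and 17 lower, against 11.7% and 9.65%. Both heterozygous arrays lay above both day 1 arrays for 6 members and below them for 34, against 32.2% and 30.1%. No member passed without any 1 of arrays 302, 303, 253 and 281 (3031 to 3428 genes had an unadjusted p under 0.05), while 2 higher and 9 lower passed without 277 or without 284. The median was -1.22, against 0.01 over all genes. This comparison shares its arrays with the other two, so it is given beside them only.

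**Figure D1:**
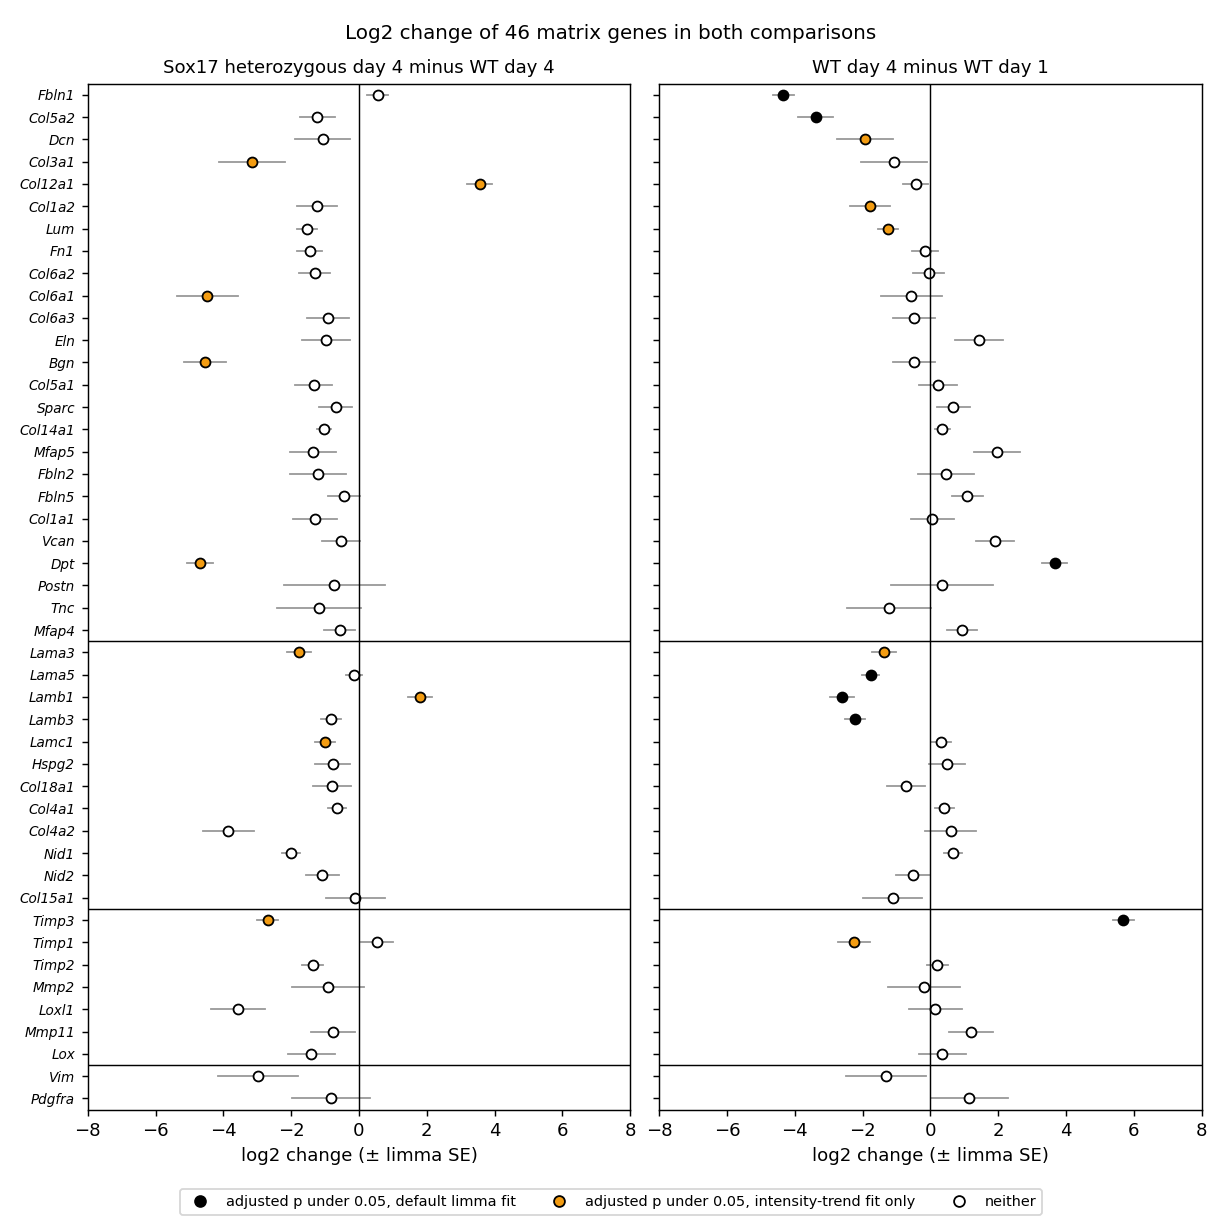
Log2 differences of the 46 matrix genes between Sox17 heterozygous and WT epithelium on day 4 (left) and between WT day 4 and WT day 1 (right). Points are differences of group means of log2(signal + 1), horizontal lines limma standard errors (2 arrays per group), filled black where the adjusted p was under 0.05, orange where only the intensity trend gave this. Horizontal rules part the interstitial matrix, basement membrane, enzymes and inhibitors, and mesenchyme markers. Most points on the left lie below 0, while those on the right fall on both sides, from -4.33 for Fbln1 to 5.69 for Timp3.

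The interstitial matrix list had 25 measured genes, of which Dpt rose between the WT days and Fbln1 and Col5a2 fell. Over all genes 7.58% rose and 5.73% fell, so these counts were near the share of all genes. Fbln1 encodes fibulin 1, a glycoprotein of elastic fibres and basement membranes. Its signal was 618 and 379 on the WT day 4 arrays and 9585 and 9945 on the day 1 arrays. Both day 4 values were far below both day 1 values, a difference of -4.33 ± 0.31 on the log2 scale (adjusted p = 0.00764), or 20.1-fold lower. Another probe set of the gene gave 465 and 238 on day 4, against 7172 and 8013 on day 1, while the remaining, dimmer one gave 227 and 108 on day 4, against 197 and 128 on day 1. The heterozygous arrays read 648 and 777, slightly above the WT day 4 range, and the difference did not pass the test (0.55 ± 0.31, adjusted p = 0.486).

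Col5a2 encodes a chain of collagen V, which nucleates collagen fibrils. It read 675 and 636 on WT day 4 and 8063 and 5787 on WT day 1, with no overlap (-3.38 ± 0.52, adjusted p = 0.0259). In heterozygous samples it read 446 and 174, below or well below the WT day 4 pair (-1.23 ± 0.52, adjusted p = 0.413). Its call between the days was lost without array 277 (adjusted p = 0.0796) and without array 284 (adjusted p = 0.066). The other fibrillar collagen chains followed a less even course. Col3a1, the main chain of collagen III, read 32.3 and 128 on the heterozygous arrays, 433 and 788 on WT day 4 and 648 and 2319 on WT day 1. The heterozygous pair lay below both WT groups, and the WT groups overlapped. The difference from WT day 4 was -3.16 ± 0.96 (adjusted p = 0.319, and 0.028 with the intensity trend).

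Col1a2, a chain of collagen I, read 91.4 and 114 on the heterozygous arrays, 229 and 258 on WT day 4 and 476 and 1476 on WT day 1. The 3 groups were ordered without overlap. The difference between the WT days was -1.78 ± 0.59 (adjusted p = 0.133, and 0.0164 with the intensity trend), and that between genotypes -1.24 ± 0.59 (adjusted p = 0.437). Its dimmer probe sets did not repeat this order. On 1 of them the WT groups overlapped (117 and 34.3 on WT day 4, 36.1 and 156 on WT day 1), with the heterozygous pair lowest (23.0 and 25.3). On the other, WT day 4 (27.1 and 15.1) lay above WT day 1 (4.03 and 4.68). Col1a1, the partner chain, was dim, at 19.4 and 40.5 on the heterozygous arrays, 116 and 42.2 on WT day 4 and 55.6 and 80.7 on WT day 1. Col5a1, the other collagen V chain, read 72.2 and 33.9 in heterozygous samples, 187 and 85.8 on WT day 4 and 97.2 and 119 on WT day 1. By the chosen probe sets, all 5 fibrillar collagen genes lay lower on both heterozygous arrays than on both WT day 4 arrays, against 30.6% of all genes. Their median was -1.29, against -0.20. Between the WT days their median was -1.07, against 0.30.

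Collagen VI forms beaded microfibrils near cell surfaces. By the chosen probe sets, all 3 measured chains were lower in heterozygous than in WT day 4 samples with no overlap, against 30.6% of all genes. Col6a1 read 11.9 and 2.60 on the heterozygous arrays, 207 and 109.6 on WT day 4 and 127 and 392.2 on WT day 1. The heterozygous values were far below those of every WT array, and the WT groups overlapped. The genotype difference was -4.48 ± 0.90 (adjusted p = 0.221, and 0.022 with the intensity trend). With a pseudocount of 32 it was -2.24, since folds against so dim a signal depend on the pseudocount. Col6a2 read 87.0 and 106 in heterozygous samples, 342 and 167 on WT day 4 and 195 and 309 on WT day 1. On its other probe set the genotypes overlapped, with 104 and 112 in heterozygous samples and 111 and 206 on WT day 4 (-0.48). Col6a3 read 58.1 and 54.2 in heterozygous samples, 193 and 59.3 on WT day 4 and 128 and 178 on WT day 1, so that array 284 lay close to the heterozygous pair.

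Col12a1, which encodes a collagen that binds the surface of fibrils, went the other way. It read 1560.0 and 1169 on the heterozygous arrays, against 150.2 and 86.0 on WT day 4 and 133 and 178 on WT day 1. Both heterozygous values were several times those of any WT array, and the WT groups overlapped. The difference from WT day 4 was 3.56 ± 0.38, or 11.8-fold (adjusted p = 0.151, and 0.00077 with the intensity trend). The difference from WT day 1 was 3.12 ± 0.38 (adjusted p = 0.0207). A second probe set read 221 and 179 in heterozygous samples, 152 and 51.3 on WT day 4, and 78.4 and 87.9 on WT day 1, again highest in heterozygous samples, with a smaller gap. With all probe sets of the gene averaged, no member passed as higher with the intensity trend. The related Col14a1 read 61.5 and 50.8 in heterozygous samples, 116 and 113 on WT day 4 and 83.3 and 95.6 on WT day 1, so it was lower in heterozygous samples than in either WT group.

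Small leucine-rich proteoglycans coat collagen fibrils and set their spacing. Bgn, biglycan, read 2.88 and 6.31 on the heterozygous arrays, 187 and 79.4 on WT day 4 and 125 and 229 on WT day 1. Both heterozygous values were far below those of every WT array, and the WT groups overlapped. The difference was -4.53 ± 0.62 from WT day 4 (adjusted p = 0.163, and 0.0172 with the intensity trend) and -5.001 ± 0.62 from WT day 1 (adjusted p = 0.0217). With a pseudocount of 32 they were -2.10 and -2.47. Its other 2 probe sets were also lower in heterozygous samples than in either WT pair, without overlap.

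Lum, lumican, read 70.4 and 67.3 in heterozygous samples, 158 and 257 on WT day 4 and 466 and 493 on WT day 1. The groups were ordered without overlap, with heterozygous samples lowest and day 1 highest. Within the heterozygous pair, and within the day 1 pair, the arrays read alike. The genotype difference was -1.54 ± 0.30 (adjusted p = 0.214), the day difference -1.25 ± 0.30 (adjusted p = 0.0682, and 0.0405 with the intensity trend) and the difference from WT day 1 -2.78 ± 0.30 (adjusted p = 0.0173). Dcn, decorin, read 187 and 356 in heterozygous samples, 296 and 997 on WT day 4 and 1318 and 3243 on WT day 1. Array 284 read highest of the 4 day 4 arrays, and the heterozygous and WT day 4 ranges overlapped. The day difference was -1.92 ± 0.82 (adjusted p = 0.209, and 0.026 with the intensity trend). Its other, much dimmer probe set went the other way between the WT days. It read 7.93 and 9.43 in heterozygous samples, 22.4 and 30.5 on WT day 4 and 3.65 and 4.74 on WT day 1.

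Dpt encodes dermatopontin, which binds decorin and fibrils. Its signal was 5.14 and 3.16 on the heterozygous arrays, 168 and 99.2 on WT day 4 and 8.39 and 10.2 on WT day 1. The WT day 4 pair was high and the other 4 arrays were low. It rose between the WT days by 3.67 ± 0.37 (adjusted p = 0.0119) and differed by -4.69 ± 0.37 between heterozygous and WT samples (adjusted p = 0.151, and 0.0293 with the intensity trend). With a pseudocount of 32 the values were 1.97 and -2.17. Array 277, with its raised dim range, read higher than 284 for this gene, yet 284 was also far above the other 4 arrays.

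The adhesive glycoprotein fibronectin (Fn1) read 121 and 62.6 in heterozygous samples, 256 and 227 on WT day 4 and 244 and 298 on WT day 1. The WT groups overlapped and the heterozygous pair lay below both (-1.46 ± 0.38 against WT day 4, adjusted p = 0.276). Elastic fibre and matricellular genes were dim and uneven. Mfap5, of the fibrillin microfibrils, read 65.5 and 38.8 in heterozygous samples, 239 and 70.0 on WT day 4 and 27.9 and 37.2 on WT day 1. Vcan, the large proteoglycan versican, read 49.0 and 48.7 in heterozygous samples, 119 and 42.6 on WT day 4 and 14.5 and 23.0 on WT day 1, with day 1 lowest. Eln (elastin), Fbln5 and Mfap4 were also higher on both WT day 4 arrays than on both day 1 arrays, by 1.43, 1.10 and 0.94, and none passed the test. Eln read 283 and 87.2 on WT day 4, against 66.7 and 49.97 on day 1, and Fbln5 read 112 and 60.8, against 47.02 and 30.7. Mfap4 was highest on array 277, at 8.17.

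Postn and Tnc, matricellular proteins of remodelling tissue, differed most between the WT day 4 arrays. Postn read 17.3 and 12.8 in heterozygous samples, 119.6 and 4.73 on WT day 4 and 19.0 and 20.5 on WT day 1. Tnc read 8.43 and 4.02 in heterozygous samples, 50.7 and 3.69 on WT day 4 and 43.4 and 28.7 on WT day 1. Array 277 gave the highest value in both cases. Fbln2 overlapped among all groups, between 25.2 and 158. Sparc, which binds collagen and calcium, depended on the probe set. The chosen one read 73.8 and 81.2 in heterozygous samples, 173 and 91.4 on WT day 4 and 55.4 and 110.0 on WT day 1. Another read 10.6 and 39.2 in heterozygous samples, 52.5 and 110.1 on WT day 4 and 212 and 454 on WT day 1. The remaining one read 11.4 and 5.59 in heterozygous samples, 67.1 and 20.9 on WT day 4 and 329 and 1085 on WT day 1. Those were ordered like Lum and the chosen probe set of Col1a2, with day 1 highest. Over the whole list, the 61 probe sets not chosen had the sign of the chosen one in 51 cases for the genotype comparison and in 42 for the day comparison.

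**Figure D2:**
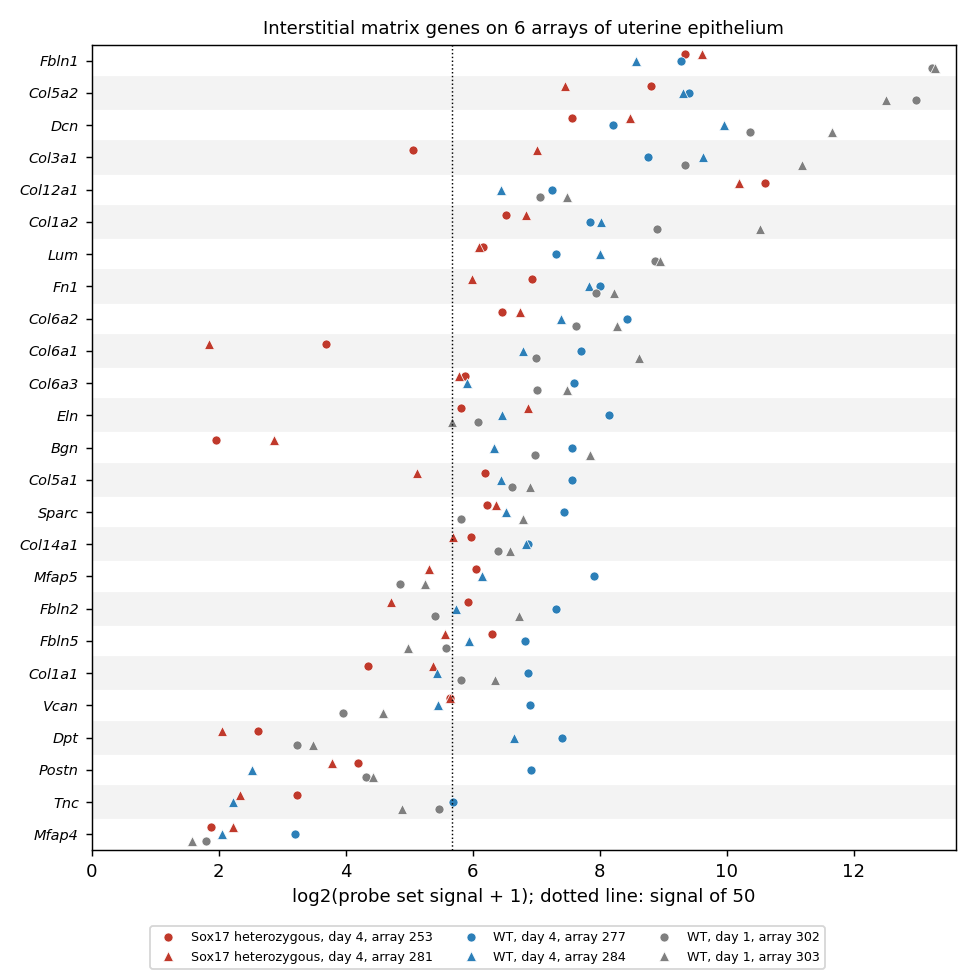
Signals of the 25 interstitial matrix genes on each array, as log2(signal + 1) on the horizontal axis, with 1 gene per line and genes sorted by mean level. Circles and triangles are the 2 arrays of each group: Sox17 heterozygous day 4 (red), WT day 4 (blue) and WT day 1 (grey), and the dotted line marks a signal of 50. Fbln1 and Col5a2 are far to the right on day 1 alone, Col12a1 on the heterozygous arrays alone, and Bgn, Col6a1 and Dpt are farthest left on the heterozygous arrays.

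Of the 5 laminin chains, 3 fell between the WT days and none rose, against 5.73% and 7.58% of all genes. Their median difference was -1.76, against 0.30 over all genes and 0.10 over genes with a mean signal of 200 or more, the range in which all 5 lie. Heterozygous against WT on day 4, their median was -0.83. Without overlap, 1 chain lay above and 3 chains below, against 18.0% and 30.6% of all genes. Lamb1, the beta 1 chain, read 1456 and 1334 on the heterozygous arrays, 290.2 and 552 on WT day 4 and 2419 and 2449 on WT day 1. WT day 4 was lowest and the heterozygous pair lay between it and day 1, with no overlap. It fell by 2.60 on the log2 scale between the WT days (SE 0.36, adjusted p = 0.0211) and was higher in heterozygous than in WT samples by 1.80 ± 0.36 (adjusted p = 0.221, and 0.00464 with the intensity trend). Its next 2 probe sets had the same order, and the brighter of them read 310.0 and 203 in heterozygous samples, 121 and 116 on WT day 4 and 619 and 578 on WT day 1.

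Lama3, the alpha 3 chain of the laminin that anchors hemidesmosomes, read 753 and 1104 in heterozygous samples, 2497 and 3799 on WT day 4 and 9199 and 6996 on WT day 1. The 3 groups stepped down from day 1 to heterozygous without overlap. The genotype difference was -1.76 ± 0.35 (adjusted p = 0.221, and 0.00393 with the intensity trend), the day difference -1.38 ± 0.35 (adjusted p = 0.0799, and 0.00155), and the difference of heterozygous samples from WT day 1 -3.14 ± 0.35 (adjusted p = 0.019). Lamb3, the beta 3 chain of the same trimer, read 215 and 333 in heterozygous samples, 451 and 499.9 on WT day 4 and 2506 and 1981 on WT day 1, again without overlap. It fell between the WT days (-2.23 ± 0.30, adjusted p = 0.0203), a call lost without any 1 of the 6 arrays (adjusted p between 0.05 and 0.126). Its genotype difference was -0.83 ± 0.30 (adjusted p = 0.374).

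Lama5, the alpha 5 chain found in most epithelial basement membranes, read 742 and 783 in heterozygous samples, 997 and 712 on WT day 4 and 2801 and 2911 on WT day 1. The day 4 groups overlapped and both lay below day 1. It fell between the WT days (-1.76 ± 0.24, adjusted p = 0.021), and its genotype difference was -0.14 ± 0.24 (adjusted p = 0.803), with a sign that turned after centring each array on its median (0.03). The day calls of Lama5 and Lamb1 were lost without array 253 or 281 (adjusted p = 0.0805 and 0.0754). Lamc1, the gamma 1 chain, read 435 and 578 in heterozygous samples, 977 and 1044 on WT day 4 and 671 and 976 on WT day 1. Heterozygous samples were lowest (-1.01 ± 0.29 against WT day 4, adjusted p = 0.298, and 0.0413 with the intensity trend). Its other probe set gave 16.4 and 111 in heterozygous samples, 32.1 and 25.8 on WT day 4 and 361 and 271 on WT day 1, so the chain's day difference depended on the probe set.

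Collagen IV was dim, and neither of its members passed the test between the WT days or the genotypes. Col4a1 read 66.8 and 56.7 in heterozygous samples, 118 and 80.1 on WT day 4 and 71.5 and 74.2 on WT day 1, a narrow range. Col4a2, the partner chain with which it shares a promoter region, read 10.6 and 3.97 in heterozygous samples, 202 and 58.2 on WT day 4 and 70.1 and 72.6 on WT day 1. Both heterozygous values were under those of all WT arrays (-3.85 ± 0.75 against WT day 4, adjusted p = 0.214, and 0.0571 with the intensity trend). It passed in 3 of 14 fits with the intensity trend: after median centring, with averaged probe sets and without array 284. With a pseudocount of 32 the difference was -1.89. The median of both chains between the WT days was 0.51, against -1.76 for the laminins.

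By the chosen probe sets, the linkers of laminin and collagen IV were also lower in heterozygous than in WT day 4 samples, without a call. Nid1, nidogen 1, read 17.0 and 24.99 in heterozygous samples, 84.0 and 87.3 on WT day 4 and 49.0 and 57.5 on WT day 1. WT day 4 was highest and the heterozygous pair lowest, without overlap (-2.00 ± 0.26 against WT day 4, adjusted p = 0.163). On its dimmer probe sets the genotypes overlapped. The brighter of those read 5.87 and 8.55 in heterozygous samples, 20.7 and 7.09 on WT day 4 and 13.3 and 55.2 on WT day 1. Nid2 read 20.2 and 12.4 in heterozygous samples, 28.2 and 42.8 on WT day 4 and 35.1 and 71.7 on WT day 1. Hspg2, perlecan, read 389 and 399 in heterozygous samples, 1052 and 434 on WT day 4 and 617 and 375 on WT day 1. Array 277 was highest for it. Its other, dimmer probe set was higher in heterozygous samples, at 46.9 and 52.2, against 32.8 and 36.1 on WT day 4. The collagens Col18a1 and Col15a1 of the basement membrane zone overlapped between the genotypes, with Col18a1 at 88.7 and 117 in heterozygous samples and 294 and 107 in WT samples on day 4. Col15a1 lay between 6.96 and 57.8.

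Over the 12 basement membrane genes the median difference was -0.61 between the WT days and -0.81 between the genotypes, while the 25 interstitial genes had -0.04 and -1.21. The medians of all genes were 0.30 and -0.20. The interstitial median depended on the WT day 4 arrays. It was -0.64 between the days without array 277 and 0.47 without array 284, and between the genotypes -0.57 without 277 and -1.77 without 284. The basement membrane day median was -0.07 without array 303, -0.15 without 284 and -0.99 without 302. Among members with a mean signal of 200 or more, 14 of 18 were lower in heterozygous samples and 10 of them at least 2-fold without overlap. Over all 9106 genes of that range the counts were 4517 and 277. The median of these 18 members was -1.15, against 0.00.

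**Figure D3:**
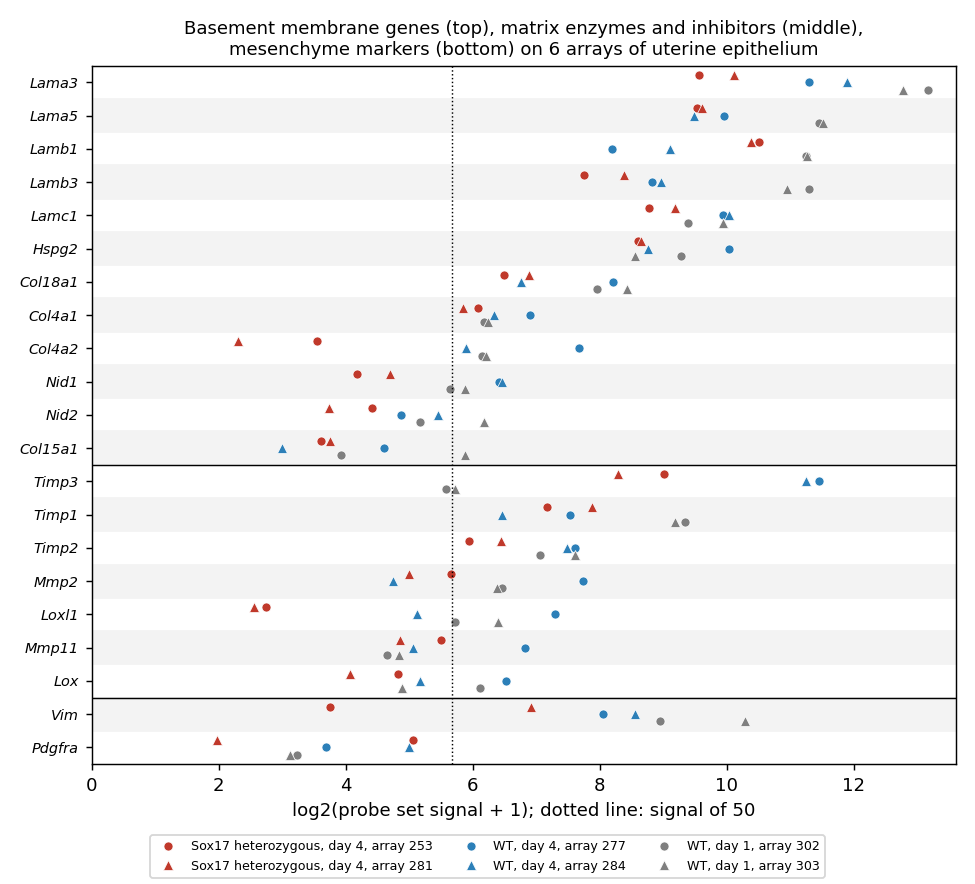
Signals of 12 basement membrane genes, 7 matrix enzymes and inhibitors and 2 mesenchyme markers on each array, as log2(signal + 1), with 1 gene per line and horizontal rules between the lists. Circles and triangles are the 2 arrays of each group: Sox17 heterozygous day 4 (red), WT day 4 (blue) and WT day 1 (grey), and the dotted line marks a signal of 50. Lama3 and Lamb3 step down from day 1 to heterozygous, Lamb1 is lowest on WT day 4, and Timp3 is highest there.

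Among the 7 enzymes and inhibitors, Timp3 rose between the WT days and no member fell, against 7.58% and 5.73% of all genes. TIMP3 is an inhibitor of metalloproteinases that binds to the matrix. Timp3 read 515 and 312 on the heterozygous arrays, 2797 and 2421 on WT day 4 and 47.04 and 51.9 on WT day 1. The groups were far apart, with heterozygous samples between the WT days. The day difference was 5.69 ± 0.31, or 51.6-fold (adjusted p = 0.0062). Heterozygous samples differed from WT day 4 by -2.70 ± 0.31, 6.48-fold lower (adjusted p = 0.151, and 0.00106 with the intensity trend), and from WT day 1 by 2.99 ± 0.31 (adjusted p = 0.0168). All 4 probe sets of the gene had this order, the second reading 351 and 359 in heterozygous samples, 2593 and 2434 on WT day 4 and 33.7 and 41.6 on WT day 1.

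The soluble inhibitor Timp1 showed another pattern, with 142 and 234 in heterozygous samples, 184 and 86.7 on WT day 4 and 646 and 578 on WT day 1. Day 1 was highest and the day 4 groups overlapped. The day difference was -2.26 ± 0.47 (adjusted p = 0.0512, and 0.00236 with the intensity trend). Timp2 read 60.2 and 85.7 in heterozygous samples, 195 and 178 on WT day 4 and 133 and 194 on WT day 1, lowest in heterozygous samples (-1.36 ± 0.31, adjusted p = 0.241). Loxl1, which crosslinks elastin, read 5.69 and 4.89 in heterozygous samples, 156 and 33.8 on WT day 4 and 51.9 and 83.2 on WT day 1. The heterozygous values were below those of all WT arrays (-3.56 ± 0.79 against WT day 4, adjusted p = 0.235), and with a pseudocount of 32 the difference was -1.58. Lox, the collagen crosslinking lysyl oxidase, read 27.2 and 15.7 in heterozygous samples, 90.7 and 35.0 on WT day 4 and 68.0 and 28.4 on WT day 1. The proteases Mmp2 and Mmp11 were highest on array 277. Mmp2 read 49.5 and 30.9 in heterozygous samples, 212 and 25.8 on WT day 4 and 87.3 and 82.7 on WT day 1. Its other probe set read 3.85 and 6.96 in heterozygous samples, 106 and 3.41 on WT day 4 and 45.5 and 67.1 on WT day 1. Mmp11 read 44.2 and 28.1 in heterozygous samples, 112 and 32.5 on WT day 4 and 24.0 and 27.7 on WT day 1.

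Vim encodes vimentin, the intermediate filament of mesenchymal cells. Its signal was 12.5 and 119 on the heterozygous arrays, 263 and 375 on WT day 4 and 491 and 1251 on WT day 1. The groups were ordered without overlap but the pairs were wide, the heterozygous one most. The genotype difference was -2.97 ± 1.18 (adjusted p = 0.394, and 0.0903 with the intensity trend). Another probe set read 41.4 and 52.4 in heterozygous samples, 61.2 and 294 on WT day 4 and 476 and 1143 on WT day 1, and the remaining one 28.0 and 46.6 in heterozygous samples, 57.3 and 211 on WT day 4 and 313 and 750.0 on WT day 1. Pdgfra, a receptor that marks fibroblasts, depended on the probe set. The chosen one read 32.2 and 2.94 in heterozygous samples, 11.8 and 30.8 on WT day 4 and 8.42 and 7.75 on WT day 1, with overlap between the day 4 groups. Another read 3.62 and 5.37 in heterozygous samples, 55.4 and 20.8 on WT day 4 and 4.28 and 2.73 on WT day 1. The remaining one read 1.25 and 1.09 in heterozygous samples, 23.9 and 85.8 on WT day 4 and 4.98 and 1.51 on WT day 1. Both of these were highest on WT day 4 without overlap, and with averaged probe sets Pdgfra passed as higher on WT day 4 than on WT day 1.

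The single WT day 4 arrays differed in most members. Of 46 members, 34 read higher on array 277 than on array 284, 21 of them at least 2-fold, and 2 were at least 2-fold lower, against 65.6%, 30.9% and 4.45% of all genes. The median difference was 0.89 on the log2 scale, against 0.31 over all genes. Interstitial genes were higher on 277 in 21 of 25 cases, basement membrane genes in 6 of 12, laminins in 1 of 5, and enzymes and inhibitors in 7 of 7. Postn (4.39), Tnc (3.46), Mmp2 (2.99) and Loxl1 (2.18) had the largest differences in that direction. Other members ran the opposite way, with Dcn at -1.75, Pdgfra at -1.31, Lamb1 at -0.93, Col3a1 at -0.86, Lum at -0.69, Lama3 at -0.60, Nid2 at -0.59 and Vim at -0.51. Whether the raised dim range of array 277 or the makeup of the samples goes with these differences was not tested.

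The pairs of the other groups also varied. In the day 1 pair, 12 of 46 members were higher on array 302 than on 303, and 8 were at least 2-fold lower on 302, against 46.6% and 9.00% of all genes. Those 8 were Col1a2 (-1.63), Col3a1 (-1.84), Col6a1 (-1.62), Dcn (-1.30), Vim (-1.35), Fbln2 (-1.32), Nid2 (-1.01) and Col15a1 (-1.95). Lox alone was at least 2-fold higher on 302 (1.23), against 9.06% of all genes. In the heterozygous pair 25 of 46 were higher on array 253 than on 281, 6 at least 2-fold higher and 4 at least 2-fold lower, against 52.3%, 10.2% and 8.20% of all genes. Vim differed by -3.16 and Pdgfra by 3.07 there. Col3a1 (-1.95) was higher on 281 and Col6a1 (1.84) on 253. The laminins differed within pairs by a median absolute difference of 0.41 in heterozygous samples, 0.49 on WT day 4 and 0.34 on WT day 1. The 46 members had 0.60 in heterozygous samples, 0.98 on WT day 4 and 0.45 on WT day 1. All genes with a mean signal of 200 or more, the range of the laminins, differed by less, with 0.14 in heterozygous samples, 0.29 on WT day 4 and 0.19 on WT day 1.

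**Figure D4:**
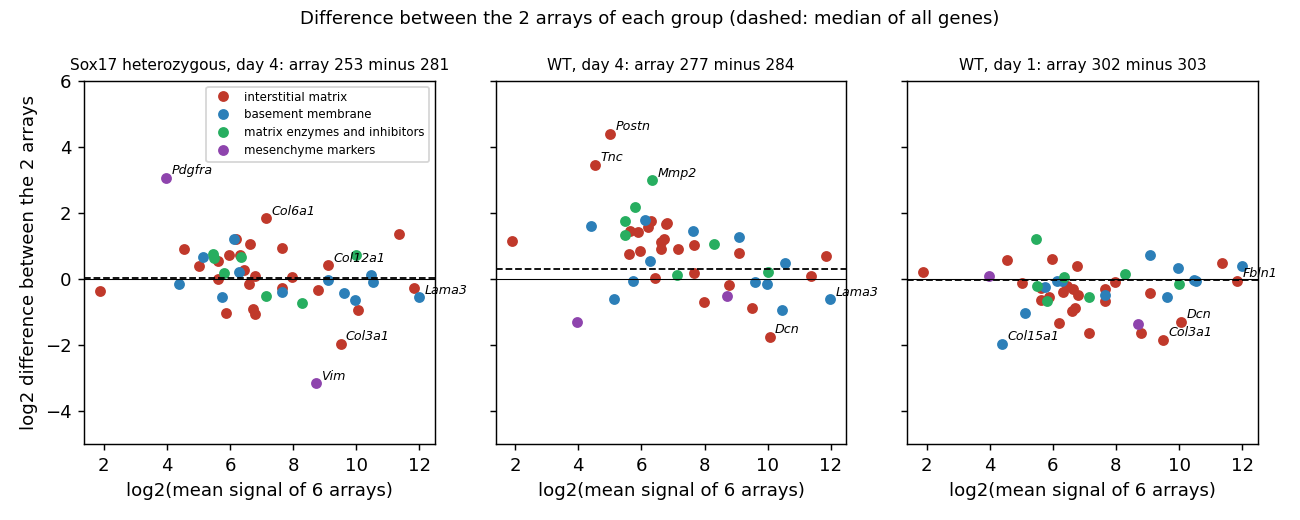
Log2 difference between the 2 arrays of each group for the 46 genes, on the vertical axis, against the log2 mean signal of 6 arrays: Sox17 heterozygous day 4 (left, 253 minus 281), WT day 4 (middle, 277 minus 284) and WT day 1 (right, 302 minus 303). Points are genes coloured by list, and the dashed line is the median of all genes. In the middle panel the dim genes lie mostly above 0, up to 4.39 for Postn, while in the right panel most genes lie below 0.

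Other genes of matrix production and turnover were read in the same samples. Of 19 measured genes of collagen biosynthesis, 1 rose and 1 fell between the WT days, against 7.58% and 5.73% of all genes, a share near that of all genes. Between the genotypes none passed, and 0% of all genes did. Plod1, a lysyl hydroxylase, read 194 and 164 in heterozygous samples, 143 and 131 on WT day 4 and 484 and 572 on WT day 1, and fell between the days (-1.94 ± 0.22, adjusted p = 0.0142). The prolyl hydroxylase subunits P4ha2 and P4ha1 lay apart between the genotypes in opposite directions. P4ha2 read 2542 and 3282 in heterozygous samples, against 504 and 487 on WT day 4 (2.54 ± 0.30, adjusted p = 0.151, and 0.000314 with the intensity trend). P4ha1 read 177 and 97.2 in heterozygous samples, against 619 and 512 on WT day 4 (-2.10 ± 0.35, adjusted p = 0.19, and 0.00429 with the intensity trend).

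Of 19 further basement membrane genes, none rose and 2 fell between the WT days, against 7.58% and 5.73% of all genes, and none passed between the genotypes (0% of all genes). Papln, papilin, had low signals, 5.77 and 3.47 on WT day 4, against 157 and 166 on WT day 1. Ntn4, netrin 4, which binds laminin, read 19.1 and 23.6 on WT day 4, against 297 and 509 on day 1, and 148 and 42.6 in heterozygous samples. Pxdn, which crosslinks collagen IV, read 353 and 241 in heterozygous samples, 842 and 877 on WT day 4 and 3121 and 2077 on WT day 1, a stepwise order like that of Lama3. Of 15 matrix receptors, 4 fell between the WT days and none rose, against 5.73% and 7.58% of all genes. Bcam, a receptor for the laminin alpha 5 chain, read 617 and 489 in heterozygous samples, 128 and 150.2 on WT day 4 and 865 and 1311 on WT day 1, with WT day 4 lowest as for Lamb1. The integrin alpha chains Itgav and Itga6 fell between the WT days by 1.90 and 1.24 on the log2 scale. Itga6, which pairs to bind laminin, read 7723 and 8209 in heterozygous samples, 3572 and 4504 on WT day 4 and 10231 and 8777 on WT day 1.

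Of 16 other metalloproteinase genes, 7 fell between the WT days and none rose, against 5.73% and 7.58% of all genes, and none passed between the genotypes (0% of all genes). Mmp7, matrilysin, an epithelial protease, read 208 and 61.1 on WT day 4, against 9516 and 7345 on WT day 1 (-6.20 ± 0.63, adjusted p = 0.0118), and 77.3 and 77.3 in heterozygous samples. Adamts9 read 259 and 229 on WT day 4, against 1214 and 1370.4 on day 1. Mmp23 read 186 and 168, against 1695 and 2343. The day 4 values of these 3 genes lay far below day 1 in both genotypes, while Timp3 was highest on WT day 4.

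Markers of other cell types were read on the same arrays. Stromal markers that encode no matrix protein, 18 genes, were lower in 15 cases and higher in 3 in heterozygous than in WT samples on day 4, with a median difference of -1.24, and none passed the test in any comparison. Over all genes, beside which the counts of the other marker lists stand too, 11407 of 18193 were lower, with a median of -0.20, and 6890 of the 9087 genes with a mean signal under 200, with a median of -0.70. Their signals summed to 3885 and 3505 in heterozygous samples, 4384 and 3184 on WT day 4 and 2940.0 and 3520.0 on WT day 1, most of it from Nr2f2. Thy1, a fibroblast surface protein, read 5.18 and 11.4 in heterozygous samples, 127 and 52.7 on WT day 4 and 57.4 and 55.0 on WT day 1. Tcf21 read 86.9 and 60.9 in heterozygous samples, 261 and 123 on WT day 4 and 85.0 and 48.6 on WT day 1. Gpx3 read 16.6 and 88.0 in heterozygous samples, 29.2 and 47.1 on WT day 4 and 296 and 527 on WT day 1. It was highest on day 1, like Lum and the chosen probe set of Dcn. Of 10 smooth muscle markers, 9 were lower in heterozygous samples, and they summed to 359.9 and 258 in heterozygous samples, 1122 and 1141 on WT day 4 and 997 and 1044 on WT day 1. Synpo2 made up much of the WT day 4 sum, with 96.5 and 46.3 in heterozygous samples, 545 and 779.6 on WT day 4 and 14.2 and 21.3 on WT day 1, and Acta2, smooth muscle actin, was 115 and 125 in heterozygous samples, 143 and 191 on WT day 4 and 505 and 504 on WT day 1.

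Endothelial markers summed to 540.0 and 576 in heterozygous samples, 1181 and 756 on WT day 4 and 2132 and 1828 on WT day 1, and 11 of 12 were lower in heterozygous than in WT samples on day 4, against 6890 of 9087 genes with a mean signal under 200. Flt1, a VEGF receptor, made up much of the day 1 sum, with 74.2 and 18.1 in heterozygous samples, 66.7 and 36.9 on WT day 4 and 1661 and 1212 on WT day 1, while Vwf read 55.3 and 73.8 in heterozygous samples, 104 and 97.0 on WT day 4 and 1.31 and 6.02 on WT day 1, lowest on day 1. Pecam1 read 4.95 and 47.9 in heterozygous samples, 121 and 62.9 on WT day 4 and 2.42 and 7.66 on WT day 1, with overlap between heterozygous samples and day 1. Mesothelial markers, 6 genes, summed to 175 and 264 in heterozygous samples, 360.4 and 591 on WT day 4 and 647 and 1093 on WT day 1, and the defining gene Msln read 2.58 and 9.44 in heterozygous samples, 62.5 and 45.4 on WT day 4 and 75.6 and 205 on WT day 1. Of 12 macrophage markers 10 were lower in heterozygous samples, among them C1qa, a complement subunit, at 8.61 and 3.68, against 171 and 84.6 in WT samples on day 4. The brighter Lyz2 differed little, at 956 and 942, against 1223 and 980 on WT day 4 (-0.21). Cd68 was slightly higher in heterozygous samples, at 308 and 167, against 224 and 157 on WT day 4 (0.27). No marker of these lists was under a signal of 1 except an endothelial gene on array 253. The 12 epithelial markers had a median genotype difference of 0.11. Without overlap, 5 were higher and 3 lower in heterozygous samples, against 18.0% and 30.6% of all genes. With the intensity trend 2 passed as higher and 0 as lower, against 1.93% and 1.59%. Krt7 read 3724 and 4323 in heterozygous samples, against 2063 and 2285 on WT day 4 (0.89, adjusted p = 0.00936 with the intensity trend). Between the WT days 1 of the 12 rose by limma (Cldn3, adjusted p = 0.0254) and 2 fell (Krt7, adjusted p = 0.00911, and Elf3, adjusted p = 0.0257). The shares of all genes were 7.58% and 5.73%. Whether cells other than epithelium had a part in the matrix signals was not tested.

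**Figure D5:**
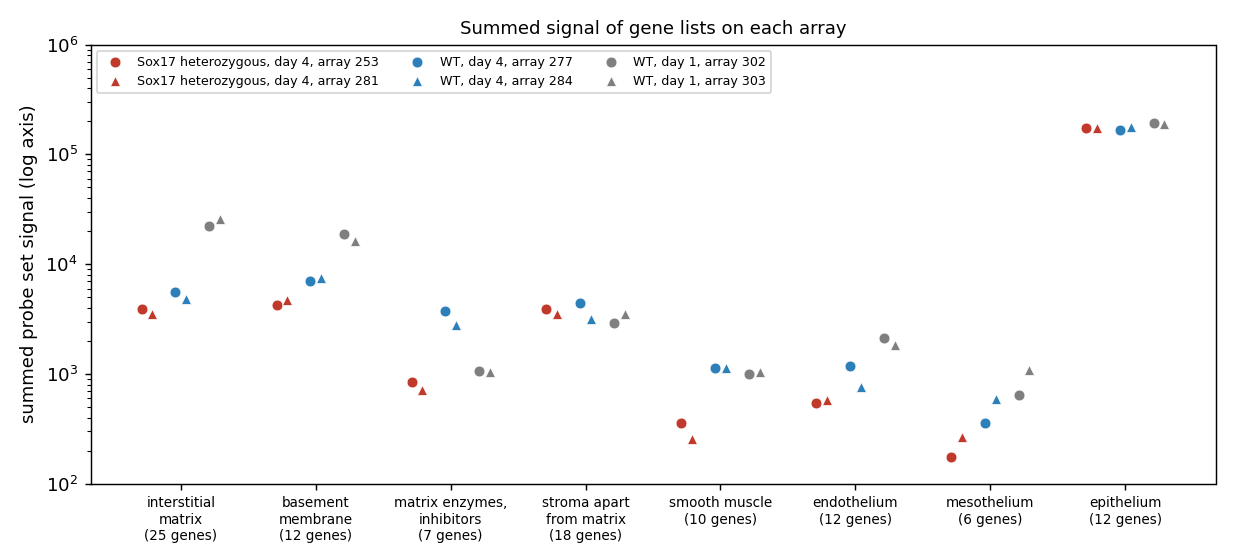
Summed signal of each gene list on every array, on a log axis, for 3 lists of matrix genes, the stromal, smooth muscle, endothelial and mesothelial marker lists and the epithelial markers. Circles and triangles are the 2 arrays of each group: Sox17 heterozygous day 4 (red), WT day 4 (blue) and WT day 1 (grey). The interstitial sum is 3884 and 3522 on the heterozygous arrays, 5594 and 4800.0 on WT day 4 and 22071 and 25559 on WT day 1, while the epithelial sums lie close together.

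The summed signal of the 46 genes was 8979 and 9113 in heterozygous samples, 16633 and 15443 on WT day 4 and 42328 and 44229 on WT day 1. The groups did not overlap, and the 2 arrays of a group lay close together although the single genes varied. For the basement membrane list the sums were 4206 and 4758 in heterozygous samples, 7016 and 7424 on WT day 4 and 18700.3 and 16366 on WT day 1. For the enzymes and inhibitors they were 844 and 711 in heterozygous samples, 3748 and 2813 on WT day 4 and 1057 and 1046 on WT day 1, with WT day 4 highest through Timp3. Sums are weighted to the probe sets with the highest signals. These were Lamb1 and Col12a1 in heterozygous samples, Lama3 and Timp3 on WT day 4, and Fbln1, Lama3 and Col5a2 on WT day 1.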

How the data were processed

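RNA of uterine epithelium was labelled and read on 1 Affymetrix 3′ array per sample, 2 samples in each of 3 groups, per the labels' protocols. The authors deposited 1 signal per probe set, a linear intensity. Affymetrix Expression Console, Transcriptome Analysis Console and RMA are named, per the submitters' processing notes, with no roles or versions, and the signals were not in the log2 form of RMA output. Detection calls were not used, so a dim signal may not lie above background. The number of arrays limits precision.

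Of 45101 probe sets (64 of them controls), 932 had several gene symbols and 9160 none listed. The 34945 with 1 symbol gave 18193 genes, and a RefSeq table (GRCm38.p6) changed 0 symbols. Values were log2(signal + 1), without further normalization or filter. The main model was limma 3.58.1 under R 4.3.3 on all 6 arrays, with 1 mean per group, default eBayes and Benjamini-Hochberg adjustment over all genes. An intensity trend in eBayes, quantile normalization, median centring, leaving out the dimmest 6065 genes, a pseudocount of 32, array weights, 4-array fits, averaged probe sets, an adjusted p of 0.10 and leaving out each array were alternatives. The intensity trend combined with the others was added after seeing the data. The default and intensity-trend fits were run on simulated data with known changes, placed only in genes above the median level. A minimum recovery was required of the intensity-trend fit alone. Of the 46 members, 27 lay below that level.

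The members and all gene lists were chosen with earlier results of these data known. Named were members past the threshold, members without overlap and at least 2-fold apart, the 6 brightest members, and up to 3 genes of smallest p per pathway or marker list. No 2 arrays were identical. No labels name a batch or pair samples.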

Additional observations from a re-analysis of the deposited data

How the results depend on the processing

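Counts of called members moved with the settings as follows. Between the WT days, the number that rose (2) was 1 without the dimmest genes and 0 to 5 when single arrays were left out. The number that fell (5) was 8 without the dimmest genes, 8 with a pseudocount of 32, 3 with array weights, 2 in a fit of only the 4 arrays compared, 10 with the intensity trend, 8 at an adjusted p under 0.10, and 0 to 5 without single arrays. Heterozygous against WT on day 4, 0 members passed in either direction in limma, except with the intensity trend, where 2 were higher and 7 lower. Leaving out single arrays gave 0 to 0 here. With the intensity trend, the 2 became 1 after centring on the median, 0 with averaged probe sets and 1 to 3 without single arrays, and the 7 became 3 with a pseudocount of 32, 3 with array weights and 3 to 9 without single arrays. Against WT day 1, the 2 higher in heterozygous samples became 1 with averaged probe sets and 0 to 2 without single arrays, and the 8 lower became 15 without the dimmest genes, 14 with a pseudocount of 32, 15 with array weights, 17 with the intensity trend, 14 at an adjusted p under 0.10 and 0 to 9 without single arrays. The interstitial day median (-0.04) was -0.64 to 0.47 and the genotype median (-1.21) -1.77 to -0.57 without single arrays. The basement membrane day median (-0.61) was -0.94 after quantile normalization, -1.05 without the dimmest genes and -0.99 to -0.072 without single arrays. Its median against WT day 1 (-1.42) was -0.79 with a pseudocount of 32 and -1.84 to -1.15 without single arrays.

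The sign turned for these single differences. Between the WT days, Bgn was 0.16, Dcn 0.24 and Lamc1 -1.54 with averaged probe sets, and Loxl1 -0.30 after quantile normalization and -0.048 after centring. Over fits without single arrays, Bgn ranged over -1.08 to 0.14, Col4a2 over -0.29 to 1.49, Col6a1 over -1.37 to 0.24 and Loxl1 over -0.94 to 1.24 (-0.19 without 302). Between the genotypes, Lama5 was 0.030 after centring, 0.62 with averaged probe sets and -0.39 to 0.10 without single arrays, and Timp1 ranged over -0.016 to 1.06 without single arrays. Over the single differences of members called by either fit and all settings, 721 kept direction and call, 62 gained a call, 76 lost one and 14 turned. Members that neither fit called, many of them dim, were not counted here. The causes were not tested. No paired analysis was possible because the sample numbers all differ between groups.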
